A study of Homo sapiens with 9 samples.

Results

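Neuronal genes that REST and its corepressor CoREST are known to keep silent outside the nervous system were examined in OCI-Ly1 cells depleted of LSD1. The set was a list of 37 gene symbols, REST itself and 36 neuronal genes, taken as rows of the deposited count table by symbol and not by their values. Of the 37 genes, 34 had a row among the 26816 of the table, and 17, REST and 16 neuronal genes, had enough reads to be tested. CHGA, NEFL and NEFM were not analysed here.

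OCI-Ly1 is an established human cell line of germinal-centre-type diffuse large B-cell lymphoma, and its polyadenylated RNA was sequenced in 9 libraries. Of these, 3 libraries came from cells with an shRNA against KDM1A called sh68, 3 from cells with another shRNA against KDM1A called sh72, and 3 from cells with a scrambled control shRNA, shSCR. KDM1A encodes LSD1. All groups carried the pLKO1 vector, were selected with puromycin and are described as biological triplicates. The sample titles number the LSD1 shRNAs and the table names them, so the names of the table are used. Total counted reads were 32230566 to 35270849 in sh68, 29857865 to 34592653 in sh72 and 29506767 to 32835510 in shSCR.

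REST is a zinc-finger repressor that binds a long DNA element called RE1 in and near neuronal genes. One end of REST recruits SIN3 and histone deacetylases, and the other recruits CoREST (RCOR1), which brings LSD1 and the deacetylases HDAC1 and HDAC2. LSD1 is a demethylase of histone H3 and takes off the mono- and dimethyl marks of lysine 4. REST is made in most cells outside the nervous system, lymphocytes included, and its targets encode synaptic vesicle proteins, ion channels, receptors, neurofilaments and granule proteins.

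The core of RE1 was searched for as TTCAGCACC, any 2 bases, then GGACAGC, on both strands, with up to 3 of its 16 letters differing. The windows were the 300-base promoter windows of RefSeq (GRCh38.p14), which 24 of the 36 neuronal genes had, and the first 1000 bases of the longest protein-coding transcript of each gene in GENCODE 29, which all 36 had. Up to 2 differing letters were found in 7 genes. The matches are shown because RE1 is the element that REST binds, and most members had none with up to 3 differing letters. Capitals mark the letters that match, lower case the free bases and the letters that differ, and each is written on the strand that carries the element.
CHRNB2: TTCAGCACCacGGACAGC
GRIN1: TTCAGCACCgcGGACAGC
SYN1: TTCAGCACCgcGGACAGt
SYT4: TTCAGCACCtcGGACAGa
VGF: TTCAGCACgctGGACAGC
RUNDC3A: cTCAGCACCtcGGAgAGC
SCN3B: cTCAGCACCacGGACAGt

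The elements of CHRNB2 (chr1:154567954-154567971), GRIN1 (chr9:137139260-137139277), SYT4 (chr18:43277296-43277313) and RUNDC3A (chr17:44308608-44308625) lay in the 5′ UTR on the gene's own strand. Those of VGF (chr7:101165559-101165576) and SCN3B (chr11:123654068-123654085) lay in the 5′ UTR on the opposite strand. The SYN1 element, on chromosome X, began at position -233 from the start site. An eighth gene, STMN2, had a match with 3 differing letters. With up to 3 differing letters the transcript search matched 7 of 36 members (19.4%) and 732 of 18026 protein-coding genes (4.06%). In a second list, of REST targets and genes of the neuronal secretory machinery, it matched 7 of 36 (19.4%). With up to 1 it matched 11.1% of members, 2.78% of the second list and 0.161% of all genes. In the promoter windows, matches with up to 3 differing letters were found for 2 of 24 members (8.33%) and for 148 of 27305 promoters (0.542%). A match is a description of the sequence, and binding of REST was not measured.

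KDM1A was lower in every library with an LSD1 shRNA. It had 761, 847 and 910 reads in sh68 libraries and 654, 719 and 638 in sh72 libraries, against 3915, 3463 and 3850 in shSCR libraries. In CPM, the reads of a gene as a share of the library's TMM-scaled total, the level was 24.4 ± 1.26 in sh68 and 20.9 ± 1.82 in sh72, against 121.2 ± 1.44 in shSCR (SD, n = 3 each). On the log2 scale sh68 gave -2.31 ± 0.054 (SE, adjusted p = 2.76e-20) and sh72 -2.54 ± 0.056 (adjusted p = 5.15e-20).

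REST was well expressed and changed little. It had 3698, 3990 and 3965 reads in sh68 libraries and 3375, 3075 and 3091 in sh72 libraries, against 3388, 3167 and 3419 in shSCR libraries. The level was 113.3 ± 0.60 CPM in sh68 and 99.0 ± 2.18 CPM in sh72, against 107.8 ± 2.65 CPM in shSCR (SD, n = 3 each). The sh68 libraries lay above and the sh72 libraries below all 3 shSCR libraries in CPM. Relative to shSCR, REST stood at 0.071 ± 0.038 in sh68 (adjusted p = 0.117) and -0.12 ± 0.038 in sh72 (adjusted p = 0.00973) in log2, and -0.026 ± 0.033 for the mean of both shRNAs (adjusted p = 0.534). With library size alone as the scaling the sh72 value was -0.084 (adjusted p = 0.0716), and the sh68 value was 0.099 (adjusted p = 0.0302). Over all alternatives the adjusted p for REST ranged from 0.00535 to 0.0934 with sh72, and it was above 0.05 without shSCR replicate 2, shSCR replicate 3 or sh72 replicate 2.

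The neuronal genes were mostly near silent in these cells. In shSCR, REST stood at 13.5 CPM per kb of exons, TUBB3 at 6.83 and STMN3 at 3.67 CPM per kb. VGF followed at 0.702, CPLX1 at 0.639, L1CAM at 0.503, RUNDC3A at 0.461, CHRNB2 at 0.343 and SYP at 0.252 CPM per kb. The median of the 33 neuronal genes with a row was 0.0296 CPM per kb in shSCR, against 1.45 CPM per kb over 18927 rows with a length and 5.71 CPM per kb over 13163 tested genes. Apart from TUBB3, every neuronal gene was below the last of these medians. Of the 33 genes, 7 had under 10 reads in all 9 libraries together, 10 had at least 10 but too few to test, and 16 were tested. Over the table these classes held 6682, 4409 and 15725 rows.

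**Figure D1:**
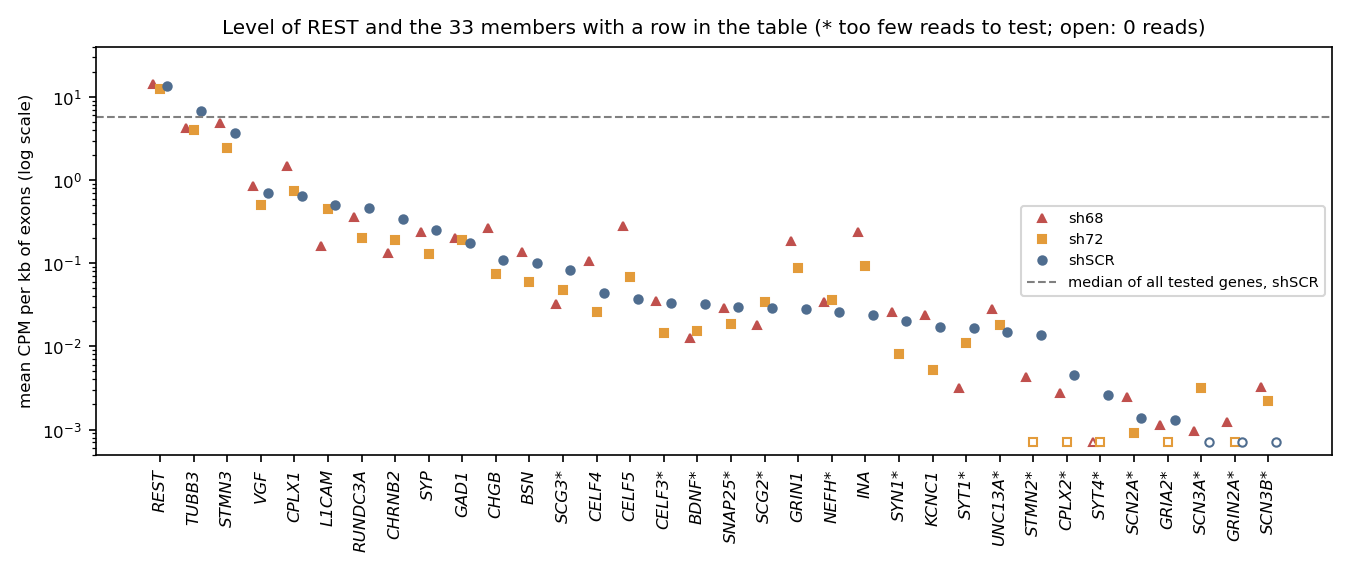
Mean CPM per kb of exons (log axis) of REST and the 33 neuronal genes with a row, in sh68 (triangles), sh72 (squares) and shSCR (circles), ordered by the shSCR level. Open symbols at the bottom are groups with 0 reads, an asterisk marks genes with too few reads to test, and the dashed line is the median of all tested genes in shSCR; TUBB3 and REST stand above it in shSCR.

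Genes were called changed at an adjusted p below 0.05 over all 15725 genes tested. In cells depleted of LSD1 neuronal genes moved in both directions. For the mean of both shRNAs against shSCR, GRIN1, INA, CPLX1 and CELF5 rose and SYP, RUNDC3A, TUBB3, L1CAM and CHRNB2 fell. That was 4 higher and 5 lower of the 16 tested, where 24.9% of all tested genes were higher and 27.5% lower. Both shares of the neuronal genes were close to those of all genes. The median log2 fold change was -0.082 over the 16 genes and -0.015 over all genes. With sh68, 7 of 16 were higher and 3 lower, against 27.4% higher and 28.1% lower over all genes, with medians of 0.42 and -0.0082. With sh72, 2 of 16 were higher and 7 lower, against 24.7% higher and 26.3% lower over all genes, with medians of -0.58 and -0.011.

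Only genes with at least 0.310 CPM in 3 or more of the 9 libraries were tested. GRIN1 and INA reached that in no shSCR library, CELF4 and CELF5 in 1 of 3, and KCNC1 in 1 shSCR, 2 sh68 and 0 sh72 libraries. These genes entered the test through the libraries in which they were high, so the counts above describe the tested genes and do not speak for all 36. The other 11 tested neuronal genes reached the minimum in all 3 libraries of sh68 and of shSCR.

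Both shRNA comparisons use the same shSCR libraries, so their values are set side by side. GRIN1 and INA were higher with each shRNA, 2 of 16 where 12.5% of all tested genes were. Both genes reached the minimum for testing in no shSCR library, so the filter partly fixed their direction. That count describes the tested genes only. TUBB3 and CHRNB2 were lower with each, 2 of 16 where 13% of all tested genes were. STMN3 passed in opposite directions, higher with sh68 and lower with sh72, 1 of 16 where 7.83% of all tested genes did so.

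**Figure D2:**
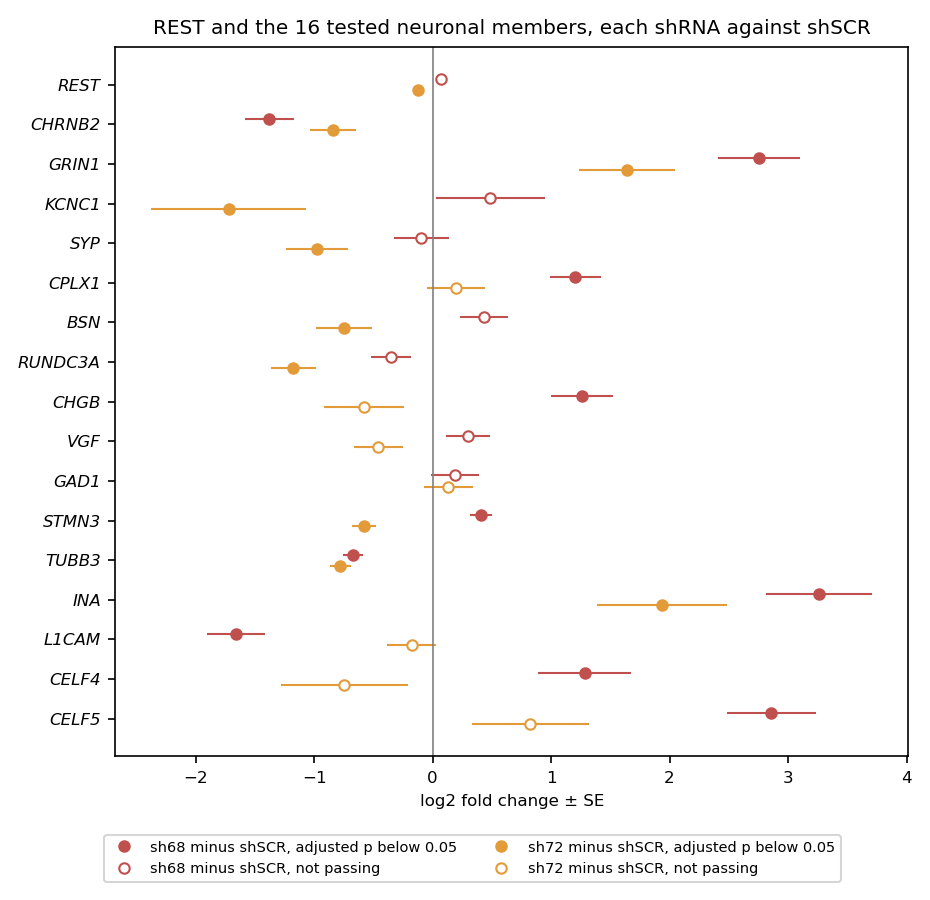
Log2 fold change with its SE for REST and the 16 tested neuronal genes, sh68 minus shSCR (red) and sh72 minus shSCR (orange), grouped from receptors and channels at the top to RNA-binding proteins at the bottom. Filled points have an adjusted p below 0.05; GRIN1 and INA are filled to the right of 0 for both shRNAs, TUBB3 and CHRNB2 to the left, and STMN3 lies on opposite sides.

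Among the 8 listed receptors and ion channels, 3 were tested, and the pair with an RE1 core that matched in all 16 letters moved apart. GRIN1 encodes the subunit that every NMDA receptor for glutamate needs. It had 42, 35 and 53 reads in sh68 libraries and 18, 15 and 23 in sh72 libraries, against 4, 9 and 4 in shSCR libraries. Its level was 1.26 ± 0.255 CPM in sh68 and 0.584 ± 0.149 CPM in sh72, against 0.188 ± 0.107 CPM in shSCR (SD, n = 3 each). Each of the 6 LSD1 shRNA libraries was above every shSCR library, and the sh68 libraries were above the sh72 libraries. Fold changes in log2 were 2.75 ± 0.35 for sh68 (adjusted p = 4.43e-07) and 1.64 ± 0.41 for sh72 (adjusted p = 0.00168). At its highest, in sh68, the level per kb was 0.188 CPM, far below the median of tested genes.

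CHRNB2, the beta subunit of the main neuronal nicotinic acetylcholine receptor, fell with each shRNA. It had 27, 26 and 27 reads in sh68 libraries and 36, 44 and 29 in sh72 libraries, against 73, 51 and 64 in shSCR libraries. The level was 0.779 ± 0.0454 CPM in sh68 and 1.13 ± 0.230 CPM in sh72, against 2.02 ± 0.246 CPM in shSCR (SD, n = 3 each). All LSD1 shRNA libraries lay below all shSCR libraries. In log2 terms the sh68 value against shSCR was -1.38 ± 0.21 (adjusted p = 5.21e-06), and the sh72 value -0.84 ± 0.20 (adjusted p = 0.000938). CHRNB2 exons share 321 bases (5.45%) with an antisense transcript in GENCODE 29, whose reads were not analysed here, and the strand setting of the counting is not known.

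KCNC1, a fast voltage-gated potassium channel subunit, had 8, 12 and 16 reads in sh68 libraries and 1, 3 and 3 in sh72 libraries, against 15, 5 and 3 in shSCR libraries. The sh72 libraries lay below the sh68 libraries, while each overlapped with shSCR. KCNC1 fell with sh72, with a log2 fold change of -1.72 ± 0.65 (adjusted p = 0.0315), and this rested on shSCR replicate 1, without which it was -0.82 (adjusted p = 0.391). The call was also lost without sh72 replicate 1 (adjusted p = 0.115) and without sh72 replicate 2 (adjusted p = 0.0536). It was lost too with DESeq2 (adjusted p = 0.0867) and limma-voom (adjusted p = 0.051). The range of adjusted p over all alternatives was 0.00993 to 0.391. With sh68 the value was 0.49 ± 0.46 (adjusted p = 0.383), and 1.38 (adjusted p = 0.04) without shSCR replicate 1.

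The other 5 receptors and channels were almost silent. SCN2A, a voltage-gated sodium channel, had 1, 4 and 1 reads in sh68 libraries and 0, 1 and 1 in sh72 libraries, against 1, 1 and 1 in shSCR libraries. The sodium channel genes SCN3A and SCN3B and the glutamate receptor genes GRIN2A and GRIA2 each had under 10 reads in the 9 libraries together, and SCN3B is one of the genes with an RE1 match. A limit of 3 reads, which a count of 0 allows, corresponds to 0.0852 to 0.104 CPM in these libraries and covers counting error only.

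Synaptic vesicle release was covered by 10 listed genes, all in the table, of which 4 were tested. CPLX1, which clamps and triggers vesicle fusion at the SNARE complex, rose with sh68. It had 152, 126 and 90 reads in sh68 libraries and 57, 74 and 41 in sh72 libraries, against 62, 38 and 44 in shSCR libraries. The sh68 libraries stood above all others and the sh72 libraries overlapped with shSCR. Against shSCR the sh68 value was 1.21 ± 0.22 in log2 (adjusted p = 4.52e-05), the sh72 value 0.20 ± 0.24 (adjusted p = 0.521) and the mean of both 0.70 ± 0.20 (adjusted p = 0.00554).

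SYP, RUNDC3A and BSN fell with sh72. SYP encodes synaptophysin, a membrane protein of synaptic vesicles. It had 49, 38 and 39 reads in sh68 libraries and 19, 21 and 24 in sh72 libraries, against 29, 41 and 51 in shSCR libraries. The sh72 libraries were the lowest in CPM and the sh68 libraries overlapped with shSCR. On the log2 scale sh68 gave -0.094 ± 0.23 (adjusted p = 0.754) and sh72 -0.97 ± 0.26 (adjusted p = 0.0033). For the mean of both it was -0.53 ± 0.21 (adjusted p = 0.0386), which was -0.34 (adjusted p = 0.281) without shSCR replicate 3 and was also not called without shSCR replicate 2, sh68 replicate 2 or 3, or sh72 replicate 1 or 2. The call was lost too with library size alone (adjusted p = 0.0559), limma-voom (adjusted p = 0.0583) and DESeq2 (adjusted p = 0.111), each of which left 4 members lower in place of 5.

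RUNDC3A, a neuronal RUN-domain protein with an RE1 match in its 5′ UTR, had 62, 58 and 61 reads in sh68 libraries and 35, 33 and 28 in sh72 libraries, against 60, 74 and 74 in shSCR libraries. The sh72 libraries lay below all others. Relative to shSCR, RUNDC3A stood at -0.35 ± 0.17 in sh68 (adjusted p = 0.0795; 0.0338 without shSCR replicate 1) and -1.17 ± 0.19 in sh72 (adjusted p = 1.49e-05) in log2. RUNDC3A shares 225 exon bases (4.59%) with RUNDC3A-AS1, which runs on the opposite strand. RUNDC3A-AS1 had 121, 114 and 115 reads in sh68 libraries and 41, 73 and 54 in sh72 libraries, against 103, 98 and 119 in shSCR libraries. It fell with sh72 as well, with a log2 fold change of -0.98 (adjusted p = 5.78e-05), and reads of the shared bases cannot be told apart without the strand setting.

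BSN encodes bassoon, a scaffold of the presynaptic active zone. It had 78, 92 and 57 reads in sh68 libraries and 41, 27 and 26 in sh72 libraries, against 57, 54 and 40 in shSCR libraries. The sh72 libraries were the lowest in CPM. Fold changes in log2 were 0.43 ± 0.20 for sh68 (adjusted p = 0.0718; 0.0128 without sh68 replicate 3) and -0.74 ± 0.24 for sh72 (adjusted p = 0.011). The sh72 call was lost without shSCR replicate 1, shSCR replicate 2 or sh72 replicate 2, with adjusted p from 0.0513 to 0.0574.

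The 6 other vesicle genes had too few reads to test. SNAP25, a SNARE of the plasma membrane, had 3, 3 and 4 reads in sh68 libraries and 1, 3 and 2 in sh72 libraries, against 2, 5 and 2 in shSCR libraries. SYN1, the vesicle-tethering synapsin with an RE1 match in its promoter, had 4, 5 and 1 reads in sh68 libraries and 1, 1 and 1 in sh72 libraries, against 2, 4 and 1 in shSCR libraries. These libraries overlapped across the groups for both genes. The priming factor gene UNC13A had 4, 14 and 15 reads in sh68 libraries and 10, 4 and 6 in sh72 libraries, against 2, 7 and 6 in shSCR libraries. For SYT1, the calcium sensor of fast release, the counts were 2, 0 and 0 in sh68 libraries and 5, 0 and 2 in sh72 libraries, against 1, 1 and 8 in shSCR libraries. UNC13A and SYT1 overlapped across the groups too. SYT4, another synaptotagmin with an RE1 match, had 1 read in all, in shSCR replicate 2, and CPLX2 had under 10.

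Granule proteins, transmitter synthesis and a neurotrophin made up 7 listed genes, of which 3 were tested. CHGB encodes chromogranin B, a core protein of secretory granules. It had 43, 44 and 36 reads in sh68 libraries and 12, 7 and 13 in sh72 libraries, against 18, 13 and 15 in shSCR libraries. In CPM the sh68 libraries lay above all shSCR libraries and the sh72 libraries below them. CHGB rose with sh68 by 1.26 ± 0.26 on the log2 scale (adjusted p = 0.000256), and its value with sh72 was -0.58 ± 0.34 (adjusted p = 0.163).

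VGF, the precursor of neuropeptides that carries an RE1 match on the opposite strand, had 72, 92 and 75 reads in sh68 libraries and 41, 43 and 48 in sh72 libraries, against 53, 73 and 48 in shSCR libraries. Both LSD1 shRNA groups overlapped with shSCR and not with each other. In log2 terms the sh68 value against shSCR was 0.30 ± 0.19 (adjusted p = 0.177; 0.0199 without shSCR replicate 2), and the sh72 value -0.46 ± 0.21 (adjusted p = 0.0674; 0.0341 without shSCR replicate 3). GAD1, which makes GABA from glutamate, had 62, 57 and 51 reads in sh68 libraries and 50, 52 and 51 in sh72 libraries, against 35, 41 and 58 in shSCR libraries. GAD1 overlapped among all 3 groups and passed in no comparison, with log2 values of 0.19 ± 0.20 for sh68 (adjusted p = 0.438) and 0.13 ± 0.21 for sh72 (adjusted p = 0.618).

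Granule genes with few reads were SCG2, SCG3 and the neurotrophin gene BDNF. SCG2, secretogranin II, had 3, 0 and 2 reads in sh68 libraries and 5, 1 and 3 in sh72 libraries, against 2, 5 and 0 in shSCR libraries. SCG3, secretogranin III, had 3, 4 and 4 reads in sh68 libraries and 6, 1 and 8 in sh72 libraries, against 6, 5 and 15 in shSCR libraries. BDNF had 3, 5 and 2 reads in sh68 libraries and 1, 3 and 7 in sh72 libraries, against 7, 11 and 5 in shSCR libraries. In CPM the sh68 libraries lay below all shSCR libraries for SCG3 and BDNF, and the sh72 libraries of the 3 genes overlapped with shSCR. BDNF shares 701 exon bases (9.06%) with the antisense gene BDNF-AS.

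The cytoskeleton and adhesion genes held the most abundant neuronal transcripts of the set. TUBB3, neuronal class III beta-tubulin, fell with each shRNA. It had 611, 671 and 673 reads in sh68 libraries and 724, 544 and 441 in sh72 libraries, against 1059, 887 and 857 in shSCR libraries. The level was 19.0 ± 0.202 CPM in sh68 and 17.6 ± 3.34 CPM in sh72, against 30.3 ± 2.74 CPM in shSCR (SD, n = 3 each). All LSD1 shRNA libraries lay below all shSCR libraries, and sh68 and sh72 overlapped. On the log2 scale sh68 gave -0.67 ± 0.088 (adjusted p = 7.28e-07) and sh72 -0.78 ± 0.090 (adjusted p = 1.16e-07). A readthrough gene of GENCODE 29 on the same strand shares 1584 exon bases (35.8%) with TUBB3, and its reads were not analysed here.

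STMN3, a stathmin that binds tubulin dimers, moved in opposite directions. It had 516, 520 and 479 reads in sh68 libraries and 251, 234 and 234 in sh72 libraries, against 392, 353 and 284 in shSCR libraries. The level was 14.8 ± 1.12 CPM in sh68 and 7.46 ± 0.188 CPM in sh72, against 11.1 ± 1.8 CPM in shSCR (SD, n = 3 each). Every sh68 library was above, and every sh72 library below, the 3 shSCR libraries. Relative to shSCR, STMN3 stood at 0.41 ± 0.093 in sh68 (adjusted p = 0.000707) and -0.58 ± 0.10 in sh72 (adjusted p = 4.91e-05) in log2. The mean of both, -0.085 ± 0.085 (adjusted p = 0.418), did not pass, and without shSCR replicate 3 it was -0.21 (adjusted p = 0.0355).

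INA, alpha-internexin, a neuronal intermediate filament protein, rose with each shRNA from a level close to the limit of 3 reads. It had 25, 30 and 23 reads in sh68 libraries and 7, 13 and 9 in sh72 libraries, against 2, 4 and 1 in shSCR libraries. The 3 groups did not overlap, with sh68 the highest. Fold changes in log2 were 3.26 ± 0.45 for sh68 (adjusted p = 1.41e-06) and 1.94 ± 0.55 for sh72 (adjusted p = 0.00476), and its size rests on the few shSCR reads. L1CAM, a neural cell adhesion molecule of the immunoglobulin family, fell with sh68. It had 55, 41 and 23 reads in sh68 libraries and 76, 140 and 96 in sh72 libraries, against 125, 95 and 120 in shSCR libraries. The sh68 libraries lay below all others, and sh72 overlapped with shSCR. In log2 terms the sh68 value against shSCR was -1.66 ± 0.24 (adjusted p = 3.54e-06), and the sh72 value -0.18 ± 0.21 (adjusted p = 0.499).

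NEFH, the heavy neurofilament subunit, had 9, 1 and 3 reads in sh68 libraries and 2, 9 and 2 in sh72 libraries, against 2, 2 and 5 in shSCR libraries. The groups overlapped, and 1 library supplied most of the reads of each LSD1 shRNA. STMN2, the neuronal stathmin, had under 10 reads in all.

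The RNA-binding proteins of the CELF family, which regulate splicing in neurons, had 2 of 3 members tested. Both rose with sh68, as did 27.4% of all tested genes. Each reached the minimum for testing in 3 sh68 libraries and 1 shSCR library, so the filter partly fixed that direction. CELF5 had 74, 38 and 59 reads in sh68 libraries and 13, 9 and 17 in sh72 libraries, against 13, 5 and 3 in shSCR libraries. The sh68 libraries stood clear of the others, and sh72 overlapped with shSCR. On the log2 scale sh68 gave 2.86 ± 0.37 (adjusted p = 6.85e-07) and sh72 0.83 ± 0.49 (adjusted p = 0.172; 0.0369 without shSCR replicate 1).

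CELF4 had 19, 19 and 33 reads in sh68 libraries and 3, 3 and 10 in sh72 libraries, against 5, 9 and 12 in shSCR libraries. The sh68 libraries were the highest and sh72 overlapped with shSCR. Relative to shSCR, CELF4 stood at 1.28 ± 0.39 in sh68 (adjusted p = 0.00789) and -0.74 ± 0.53 in sh72 (adjusted p = 0.257) in log2. The sh68 call was lost without shSCR replicate 1 (adjusted p = 0.0599) or sh68 replicate 3 (adjusted p = 0.068), and the sh72 value was -1.57 (adjusted p = 0.0431) without sh72 replicate 3. CELF3 had 3, 9 and 4 reads in sh68 libraries and 0, 1 and 5 in sh72 libraries, against 7, 2 and 5 in shSCR libraries, which overlapped.

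**Figure D3:**
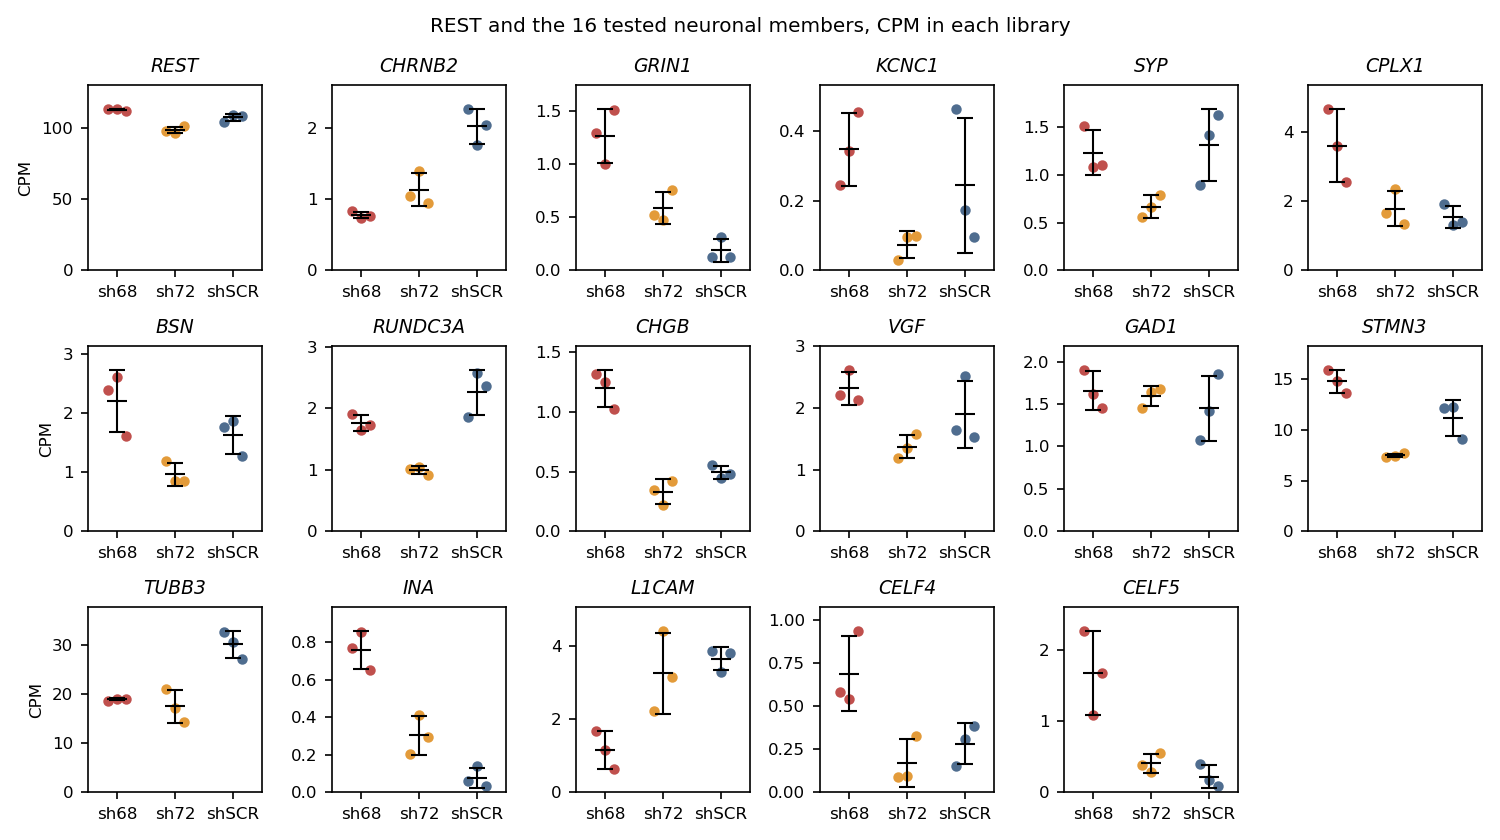
CPM of REST and the 16 tested neuronal genes in each library, with sh68, sh72 and shSCR from left to right; points are libraries, and the bar and whiskers are the mean and SD of 3 libraries. Each panel has its own linear axis from 0; GRIN1 and INA are lowest in shSCR, TUBB3 and CHRNB2 highest in shSCR, and STMN3 has shSCR between the LSD1 shRNAs.

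The 17 untested neuronal genes had 1 to 68 reads each over the 9 libraries. Together they held 126 reads in sh68 and 97 in sh72, against 131 in shSCR, and the highest group mean of any was 0.316 CPM. A single gene had 0 reads in sh68 and 5 had 0 in sh72, against 3 in shSCR. Fitted with no filter, 0 of the 17 passed in any of the 4 comparisons by edgeR. DESeq2 gave an adjusted p to 6 of the 17 for the mean of both and to 8 in each other comparison, and 0 of these passed. At an unadjusted p below 0.05, edgeR gave SCG3 and BDNF for the mean of both shRNAs, SYT1, SCG3 and BDNF for sh68, and 0 genes for sh72 and for sh72 against sh68, while DESeq2 gave 0 in each. UNC13A entered the test and was called higher with sh68 when sh68 replicate 1 was left out. With all 9 libraries a change of these genes was not detectable at this depth.

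The tested genes with an RE1 match of up to 2 differing letters were CHRNB2, GRIN1, RUNDC3A and VGF. CHRNB2 fell with each shRNA, GRIN1 rose with each, RUNDC3A fell with sh72 and VGF passed with neither. The 3 other genes with such a match, SYN1, SYT4 and SCN3B, were among the untested.

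The LSD1 shRNAs were then compared with each other. Set against sh68, sh72 libraries had lower reads of most tested neuronal genes. Of 16, 12 were lower and 2 higher, where 29% of all tested genes were lower and 27.2% higher, and the median log2 difference was -0.99 over the 16 genes and -0.011 over all. INA, CELF4 and CELF5 had reached the minimum for testing in 3 sh68 libraries and in 1, 1 and 2 sh72 libraries, and KCNC1 in 2 sh68 and 0 sh72 libraries, so the filter partly fixed their direction and the count describes the tested genes only. KCNC1 differed by -2.21 ± 0.60 (adjusted p = 0.00291), CELF5 by -2.03 ± 0.33 (adjusted p = 1.16e-05), CELF4 by -2.03 ± 0.44 (adjusted p = 0.000351) and CHGB by -1.84 ± 0.28 (adjusted p = 5.78e-06). INA, BSN, GRIN1 and CPLX1 differed by -1.01 to -1.32, and STMN3, SYP, RUNDC3A and VGF by -0.76 to -0.98. For each of these 12 genes all sh72 libraries were below all sh68 libraries in CPM. L1CAM was higher in sh72, by 1.48 ± 0.25 (adjusted p = 1.74e-05). CHRNB2 was higher by 0.54 ± 0.23 (adjusted p = 0.0495), a call lost in 8 of the 9 fits that leave out a library. The difference did not pass for TUBB3, at -0.11 ± 0.093 (adjusted p = 0.347), or -0.26 (adjusted p = 0.00629) without sh72 replicate 1, nor for GAD1, at -0.059 ± 0.20 (adjusted p = 0.819). REST differed by -0.19 ± 0.038 (adjusted p = 0.00013) and KDM1A by -0.23 ± 0.061 (adjusted p = 0.00261), both lower in sh72.

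**Figure D4:**
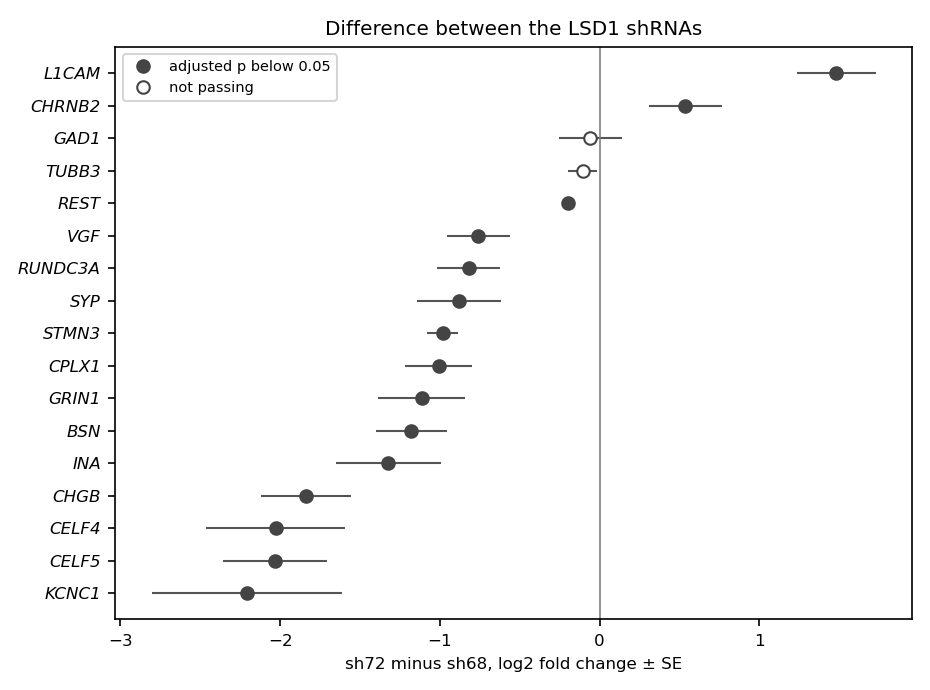
Log2 difference between sh72 and sh68 with its SE for REST and the 16 tested neuronal genes, ordered by value. Filled points have an adjusted p below 0.05; L1CAM and CHRNB2 lie to the right of 0, GAD1 and TUBB3 are open near 0, and the others, REST included, lie to the left.

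Partners of REST were a list of 25 genes, subunits of the CoREST and SIN3 complexes, other corepressors and enzymes that act on REST, of which 22 were tested. For the mean of both shRNAs 6 rose and 13 fell, where 24.9% of all tested genes were higher and 27.5% lower. With sh68 6 rose and 11 fell (27.4% and 28.1% of all), and with sh72 4 rose and 12 fell (24.7% and 26.3% of all). Many of these partners had high read counts, so small changes passed, such as 0.10 for HDAC1 and -0.13 for SIN3A for the mean of both. The share over all genes also covers genes with far fewer reads. RCOR1, which encodes CoREST itself, had 2401, 2560 and 2685 reads in sh68 libraries and 2932, 2601 and 2543 in sh72 libraries, against 1995, 1798 and 2112 in shSCR libraries. All LSD1 shRNA libraries were above all shSCR libraries in CPM, and the log2 fold change was 0.31 ± 0.039 for the mean of both (adjusted p = 4.96e-07). Its paralog RCOR2 fell, at -0.38 ± 0.091 in log2 for the mean of both. SIN3B, a SIN3 scaffold, also fell, at -0.32 ± 0.037. CTDSP2, a phosphatase that REST recruits, was lower at -0.30 ± 0.036, with -0.12 in sh68 and -0.48 in sh72. BTRC, the ubiquitin ligase subunit that marks REST for degradation, was lower at -0.46 ± 0.075. BTRC passed with sh72, at -0.74 (adjusted p = 2.81e-07), and not with sh68, at -0.18 (adjusted p = 0.0742). RCOR1, RCOR2, SIN3B and CTDSP2 passed with each shRNA in the direction of the mean. CTBP2, a corepressor found with CoREST, moved apart. It had 169, 166 and 200 reads in sh68 libraries and 39, 26 and 35 in sh72 libraries, against 79, 68 and 61 in shSCR libraries, and in log2 it stood 1.21 ± 0.14 above shSCR in sh68 (adjusted p = 1.16e-07) and at -1.11 ± 0.19 in sh72 (adjusted p = 2.45e-05).

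**Figure D5:**
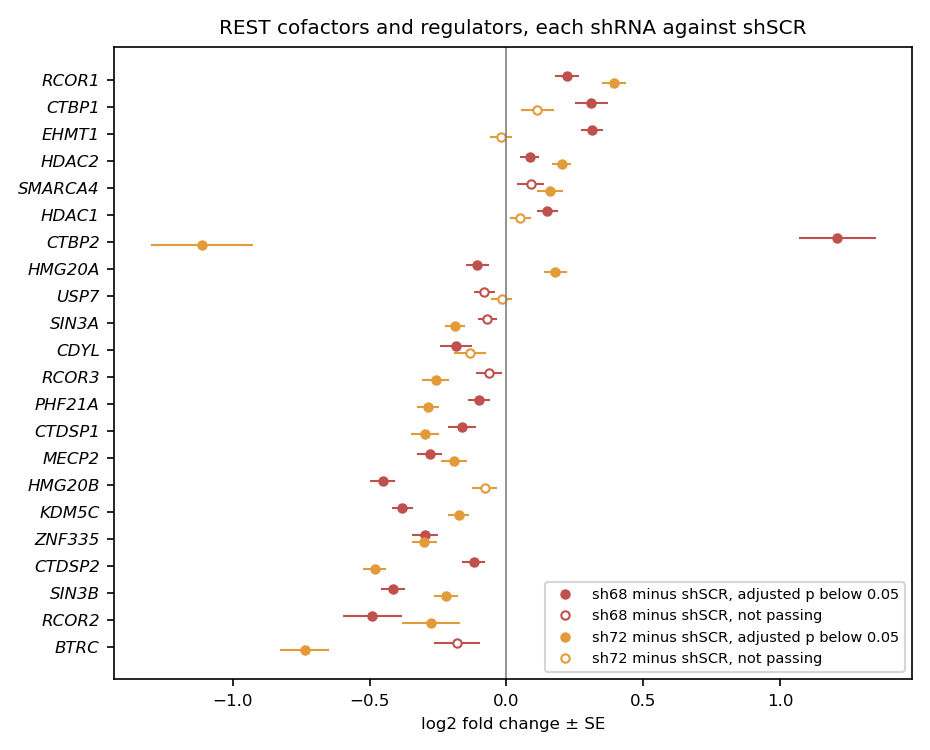
Log2 fold change with its SE of the 22 tested partners and regulators of REST, sh68 minus shSCR (red) and sh72 minus shSCR (orange), ordered by the mean of both. Filled points have an adjusted p below 0.05; RCOR1 is at the top, BTRC at the bottom, and CTBP2 is far to the right with sh68 and far to the left with sh72.

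A second list held 36 further genes, known as targets of REST or as parts of the neuronal secretory machinery. Of these, 30 had a row and 17 were tested. For the mean of both shRNAs 4 rose and 5 fell, beside the 24.9% higher and 27.5% lower of all tested genes, and the median log2 fold change was 0.028. With sh68 5 rose and 4 fell (27.4% and 28.1% of all), and with sh72 3 rose and 7 fell (24.7% and 26.3% of all). Shares for the mean of both were close to those of all genes. KCNN4, a calcium-activated potassium channel of lymphocytes, rose by 0.95 ± 0.090 for the mean of both. MAPK8IP1, a scaffold of JNK signalling, fell, at -1.04 ± 0.18. CHRM4, a muscarinic acetylcholine receptor, had 1.90 ± 0.17 in sh68 (adjusted p = 9.76e-10) and -0.21 ± 0.22 in sh72 (adjusted p = 0.427). DLG4, the postsynaptic scaffold PSD-95, had 0.028 ± 0.12 in sh68 (adjusted p = 0.854) and -1.09 ± 0.13 in sh72 (adjusted p = 2.16e-07).

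Markers of cell types were read beside these results. The summed level of 7 B-cell markers, all present, was 4672 to 4812 CPM in sh68 and 3217 to 3403 CPM in sh72, against 4792 to 4955 CPM in shSCR. That sum was thus lower in sh72 than in the other groups. Of the 16 tested neuronal genes, 7 were lower in sh72 than in shSCR, where 26.3% of all tested genes were. Against sh68, 12 of the 16 were lower, where 29% of all were. A link with the markers was not tested. PAX5, the B-cell identity factor, had a log2 fold change of 0.13 ± 0.039 with sh68 and -1.04 ± 0.040 with sh72. Of 7 general neuron markers 5 had a row, and their sum was 10.7 to 11.1 CPM in sh68 and 10.3 to 12.3 CPM in sh72, against 4.29 to 5.38 CPM in shSCR. That sum was nearly all MAP2 and SLC17A7, while RBFOX3 and ELAVL3 were near 0 and DCX had 0 reads in sh72 and shSCR. MAP2, a microtubule-binding protein of dendrites, rose by 1.44 ± 0.10 and SLC17A7, a vesicular glutamate transporter, by 0.71 ± 0.16 for the mean of both. Sums of 4 T-cell markers were 0.256 to 0.653 CPM in sh68 and 0.292 to 0.623 CPM in sh72, against 0.0638 to 0.186 CPM in shSCR, and CD2 had 0 reads in sh68 and sh72. Monocyte markers, 3 in number, summed to 0.341 to 0.461 CPM in sh68 and 0.262 to 0.350 CPM in sh72, against 0.278 to 0.351 CPM in shSCR. Fibroblast markers summed to 1.38 to 1.65 CPM in sh68 and 1.25 to 3.32 CPM in sh72, against 0.433 to 0.510 CPM in shSCR, mostly COL1A1. Epithelial markers, nearly all EPCAM, summed to 7.52 to 8.86 CPM in sh68 and 15.6 to 16.2 CPM in sh72, against 15.2 to 18.1 CPM in shSCR. The part of these markers in the results was not tested. In RNA of whole cultures, fewer cells that make a transcript and less of it per cell cannot be told apart.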

How the data were processed

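The deposited table holds counts, whole reads per gene symbol and library, made by the authors with CASAVA 1.8.2, STAR 2.5.2 and featureCounts 1.5.2 on hg38, per the submitters' processing notes. What is not given in the sources used here is the parameters, the annotation and the strand setting. All 9 columns were used.

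Tests ran in R 4.3.3 on edgeR 4.0.16, with limma 3.58.1. filterByExpr with its defaults (a minimum count of 10 and a total of 15) kept 15725 of 26816 genes. After TMM scaling, 1 quasi-likelihood model of the 3 groups was fitted to the 9 libraries. Its contrasts set the average of sh68 and sh72, sh68 alone and sh72 alone against shSCR, and sh72 against sh68. Benjamini-Hochberg adjustment ran over the genes tested. The common biological coefficient of variation was 0.0394. SE is the absolute log2 fold change over the square root of F. The procedure was tested on simulated data, in which both shRNAs had the same effect and far fewer genes changed than were called here. That simulation thus says nothing on how well a difference between the shRNAs is recovered. At the depths given in the report, genes with few reads are limited by counting error. Nothing says whether the biological triplicates were separate cultures, so p-values measure the spread between these libraries.

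The members and lists were chosen with earlier results of these data known, and the transcript search for RE1 was added after seeing the data. Reads per library are given for KDM1A, REST, each member passing in any contrast and each untested member with at least 10 reads, and from other lists up to 5 passing genes with the largest change were named; 1 gene that this took is not reported here. GAD1, CTBP2, the marker genes and RUNDC3A-AS1 stand outside that rule and were chosen after their values were seen. Exon lengths and overlaps are from GENCODE 29. Replicate numbers were not taken to pair libraries. The alternatives covered scaling (RLE, or library size alone), the filter (none, or 1 CPM in 3 libraries), the tool (limma-voom, or DESeq2 1.42.0), the libraries in the fit (only the compared groups, the 6 LSD1 shRNA libraries as 1 group, each library left out) and a replicate block.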

Additional observations from a re-analysis of the deposited data

Results flagged for a closer look

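The effects of the LSD1 shRNAs differed from each other, by the test of the difference itself, for REST and 14 of the 16 tested neuronal genes. The log2 difference, sh72 minus sh68, was -2.21 for KCNC1, -2.03 for CELF5, -2.03 for CELF4, -1.84 for CHGB, -1.32 for INA, -1.18 for BSN, -1.11 for GRIN1 and -1.01 for CPLX1. It was -0.98 for STMN3, -0.88 for SYP, -0.82 for RUNDC3A, -0.76 for VGF and -0.19 for REST. L1CAM and CHRNB2 differed the other way, by 1.48 and 0.54. All 15 had an adjusted p below 0.05 over the genes tested, where 29% of all genes were lower and 27.2% higher in sh72. INA, CELF4, CELF5 and KCNC1 reached the minimum for testing in more sh68 than sh72 libraries. The filter thus partly fixed their direction, and the count describes the tested genes only. The CHRNB2 call was lost in 8 of the 9 fits that leave out a library. The summed level of B-cell markers was also lower in sh72 than in sh68, and its part in these differences was not tested.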

How the results depend on the processing

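With a minimum of 1 CPM in 3 libraries, fewer genes were tested, and the members called higher were 2 for the mean of both shRNAs in place of 4, 4 in place of 7 with sh68 and 0 in place of 2 with sh72. With the 6 LSD1 shRNA libraries as 1 group, 2 members were higher and 2 lower for the mean, in place of 4 and 5; the calls of CPLX1, CELF5, SYP, L1CAM and RUNDC3A were lost, and differences between the shRNAs enter the spread there. With only the groups compared in the fit, 1 member in place of 2 was higher with sh72. In sh72 against sh68, 1 member in place of 2 was higher with only the groups compared, no filter, DESeq2, limma-voom and the replicate block, since CHRNB2 was no longer called. Leaving out each library in turn, the members higher were 4 to 4, 7 to 8, 2 to 3 and 1 to 2 for the mean, sh68, sh72 and sh72 against sh68, and those lower 4 to 5, 3 to 4, 5 to 8 and 12 to 13. Over those fits, 614 of 648 values of single genes kept their side of the threshold, 25 lost the call and 9 gained it. UNC13A, outside the main test, was called without sh68 replicate 1 and is in the count of 8 there. Fits without an shSCR or an sh72 library also tested 17 members in place of 16, and called none beyond the 16. The sign changed for 13 of the 648 values and for 1 of 556 under the other alternatives; none of these was called before or after. Same-numbered libraries of different groups had residual correlations from -0.0594 to 0.197, and the other pairs from -0.208 to 0.0971. The ranges overlapped, and the highest value was of a same-numbered pair. The numbers are not said to mark a shared culture or day, so they were not taken to pair libraries. With the replicate block 8 members in place of 7 were higher with sh68, BSN being added, and no other count for shSCR comparisons moved. RLE scaling changed no call of a member.

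Depth limits the low genes. GRIN1, INA, CELF4, CELF5 and KCNC1 rest on fewer than 10 reads in most shSCR libraries, and their fold changes depend on those reads.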
